A study of Mus musculus with 6 samples.

Results

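The genes described here govern efferocytosis, the uptake of dying cells, and its inhibition. They are 10 of the 31053 genes in the deposited matrices: the receptor tyrosine kinases Axl, Mertk and Tyro3 (the TAM receptors), their ligands Gas6 and Pros1, the uptake receptors Timd4, Stab1 and Lrp1, and the don't-eat-me ligand Cd47 with its receptor Sirpa. Members were found by gene symbol, from a list written with earlier results of these data known. All 10 matched a single row. Levels were read by single-cell RNA sequencing in flank tumours of C57BL/6 mice, implanted with the mouse melanoma cells Yumm5.2. Every line carried a short hairpin RNA against Cdkn2a. The control line (shControl) carried no hairpin against Slc39a9, a gene that encodes a zinc transporter, and the other lines carried hairpin 1 or hairpin 2 against it. Mice with each line received 200 µg of anti-PD1 or of the placebo IgG2a by intraperitoneal injection 3 times a week, after 350000 cells had been implanted, and tumours were taken at 0.5 cm3.

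This design gave 6 libraries, 1 for each of the 3 lines under each antibody. The knockdown groups therefore held 2 libraries an antibody, from 2 lines, and the control groups held 1 library each, from 1 line. How many tumours went into a library is not given in the sources used here, so p-values measure the spread between these libraries only. A difference between knockdown and control cannot be told apart from a difference between the control line and the others. Where 6 values follow each other below, the control line comes first, then the line with hairpin 1 and then that with hairpin 2, and within each line IgG precedes anti-PD1.

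As background, a dying cell exposes phosphatidylserine on its surface. Timd4 and Stab1 bind that lipid directly, whereas the TAM receptors reach it through the bridging proteins Gas6 and Pros1. Gas6 binds all TAM receptors, and Pros1 binds Mertk and Tyro3. Lrp1 takes up cells that display calreticulin. Cd47 on a target cell engages Sirpa on the phagocyte and restrains engulfment. In tumours, macrophages are the main professional phagocytes, and Axl is also well known as a receptor of melanoma cells.

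All members are protein-coding genes of GRCm38, with positions from GENCODE M21. Of the TAM receptors, Axl (ENSMUSG00000002602) is on chromosome 7 at 25757273 to 25788705 on the minus strand, Mertk (ENSMUSG00000014361) on chromosome 2 at 128698956 to 128802894 on the plus strand and Tyro3 (ENSMUSG00000027298) on chromosome 2 at 119797733 to 119818104. Of the ligands, Gas6 (ENSMUSG00000031451) is on chromosome 8 at 13465374 to 13494490 on the minus strand and Pros1 (ENSMUSG00000022912) on chromosome 16 at 62854307 to 62929346. Timd4 (ENSMUSG00000055546) is on chromosome 11 at 46810800 to 46844332, Stab1 (ENSMUSG00000042286) on chromosome 14 at 31139013 to 31168641 and Lrp1 (ENSMUSG00000040249) on chromosome 10 at 127538161 to 127621148. Cd47 (ENSMUSG00000055447) is on chromosome 16 at 49800533 to 49915010 and Sirpa (ENSMUSG00000037902) on chromosome 2 at 129592835 to 129632228. The windows upstream of Axl, Mertk and Gas6 are printed because Mertk and Gas6 were higher on the side of the macrophages where Axl was lower. Each holds the 250 bases before the RefSeq start (GRCm38.p6), 5′ to 3′ on the strand of the gene, and overlaps 0 exons of GENCODE M21. The windows are chr7:25788734-25788983 on the minus strand for Axl, chr2:128698665-128698914 on the plus strand for Mertk and chr8:13494536-13494785 on the minus strand for Gas6. Capitals mark GGGCGG or its reverse complement CCGCCC, the GC box bound by Sp1-type factors.

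Axl: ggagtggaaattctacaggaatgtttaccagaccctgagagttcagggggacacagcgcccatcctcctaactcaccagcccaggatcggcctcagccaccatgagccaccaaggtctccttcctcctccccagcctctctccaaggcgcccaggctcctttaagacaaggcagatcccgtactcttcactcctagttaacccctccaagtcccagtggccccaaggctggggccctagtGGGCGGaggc
Mertk: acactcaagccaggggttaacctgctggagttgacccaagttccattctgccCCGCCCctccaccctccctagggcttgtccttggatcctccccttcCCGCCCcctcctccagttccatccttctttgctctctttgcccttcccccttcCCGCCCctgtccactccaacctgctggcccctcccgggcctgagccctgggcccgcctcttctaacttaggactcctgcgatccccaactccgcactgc
Gas6: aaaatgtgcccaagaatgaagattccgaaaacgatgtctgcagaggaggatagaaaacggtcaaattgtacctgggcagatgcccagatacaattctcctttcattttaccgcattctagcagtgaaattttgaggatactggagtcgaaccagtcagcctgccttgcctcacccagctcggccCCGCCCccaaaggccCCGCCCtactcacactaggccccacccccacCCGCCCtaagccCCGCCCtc

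The GC box occurred 1 time before Axl, 3 times before Mertk and 4 times before Gas6. At least 1 copy was found in 32.7% of the 32851 promoter windows of that length. GC content was 60.0% for Axl, 63.6% for Mertk and 54.8% for Gas6. The reverse complement of GAGGAAG, the core bound by the myeloid factor PU.1, occurred 1 time before Axl, and 10.6% of all windows held that motif on either strand. It overlaps no GC box there. A match is a description of letters and not a site of binding.

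After filters, 43260 cells of 43929 barcodes remained, with 58859821 to 83204249 UMIs (unique molecular identifiers, each a counted RNA molecule) a library. Macrophages were the 9682 cells with at least 3 UMIs of C1qa, C1qb and C1qc together. The 25401 tumour cells had at least 5 UMIs of Spp1, Grem1 and Cdkn2a, at most 1 of Tyrobp and 0 of Ptprc, and the 83 dendritic cells had at least 3 of Flt3, Zbtb46, Xcr1, Clec9a, Cd209a, Ccr7 and Ccl22 together, at least 5 of MHC class II genes and at most 2 of C1q. Median UMIs a cell were 2577 to 4087 in macrophages, 9525 to 14084 in tumour cells and 2811 to 4512 in dendritic cells. All 10 macrophage markers were found in the macrophages, at a summed 22241 to 26507 counts per 1000000 UMIs of the class in a library (CPM, the scale of all levels below). Of the melanocyte markers, Sox10 (0.0125), Mlana (0.0108), Dct (0.00796), Pmel (0.638) and Tyr (0.965) were under 1 CPM in the tumour cells, while Pax3 was at 64.3 and Mitf at 18.2. The class is therefore named by its gate alone. Near the limits of the gates lay 629 cells of the macrophage gate with a C1q sum of 3 or 4, 1867 tumour cells with a score of 5 to 9 and 22 dendritic cells with a score of 3. Of the 9682 macrophages, 3006 had fewer than 2 UMIs of the myeloid gene Tyrobp, and 2796 of the 25401 tumour cells carried C1q UMIs. A further 568 cells met several gates and were left out of all. Cells of the gate on Csf3r, Cxcr2 and Mmp9 (1258) carried Ctsk at 11787 to 17756 CPM beside S100a8 at 115 to 864, and are called by that gate and not as neutrophils. Libraries shared 3859 to 6923 barcodes with each other, 63.2 to 89.5% of those of the smaller library, and all 43929 start with AAAC or AAAG. In each of the 15 pairs of libraries, cells with a shared barcode fell in the same class more often (58.7 to 65.5%) than the class shares alone give (48.7 to 60.9%). Of the shared barcodes, 0 to 4 a pair had the same UMI total. The reason for the shared barcodes and their part in the results below were not tested. Slc39a9 in tumour cells was at 22.8 and 20.8 CPM in the control libraries and 8.03, 8.42, 12.0 and 11.1 in the hairpin libraries, which do not overlap, while macrophages held 21.5 to 25.9 in all libraries.

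Axl and Mertk, receptors of the same family, were spread over the cells in opposite ways. Axl was at 258, 247, 237, 204, 203 and 206 CPM in tumour cells and at 62.8, 62.1, 127, 97.3, 118 and 113 in macrophages. Every library had more Axl in tumour cells, by 1.73 to 4.11 times. Mertk was at 452, 401, 357, 312, 410 and 366 in macrophages and at 56.5, 49.6, 59.7, 49.0, 53.5 and 45.6 in tumour cells, so that macrophages were 5.97 to 8.08 times higher in every library. Tyro3, the TAM receptor best known from the nervous system, was low in both: 30.1, 28.7, 44.0, 39.1, 31.7 and 34.1 in tumour cells against 3.31 to 6.76 in macrophages. Ranges over libraries of the tumour cells and the macrophages did not overlap for any TAM receptor. Tumour cells, which were more numerous and deeper, held 91.3 to 97.3% of the Axl UMIs of all gated cells, 97.7 to 98.2% of the Tyro3 UMIs and 48.9 to 60.1% of the Mertk UMIs.

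The bridging ligands differed in their source. Gas6 was at 240, 245, 204, 173, 223 and 215 CPM in macrophages and at 0.17 to 0.43 in tumour cells, where 8 to 28 UMIs a library were counted. Macrophages held 97.8 to 98.8% of all gated Gas6 UMIs. By the mean over libraries, endothelial cells (144 cells in all) came next at 18.7 to 61.8, with the 42 pericytes close to them at 0 to 154. On pooled counts the pericytes, with 8 Gas6 UMIs, were at 55.1 and the endothelial cells at 43.8. Dendritic cells held 0 Gas6 UMIs, so macrophages were at least 27.4-fold higher against a floor of 3 counts over all dendritic cells. Pros1, the other ligand, was at 43.8, 42.3, 37.0, 34.5, 34.5 and 41.3 in macrophages and at 50.1, 49.2, 33.8, 29.9, 44.3 and 39.5 in tumour cells, and these ranges overlapped. Endothelial cells reached 75.5 to 228 for Pros1, above every tumour cell library. Tumour cells thereby held Axl, Mertk and Tyro3 with Pros1 and next to no Gas6, and macrophages held Mertk and Axl, with little Tyro3, beside both ligands.

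**Figure D1:**
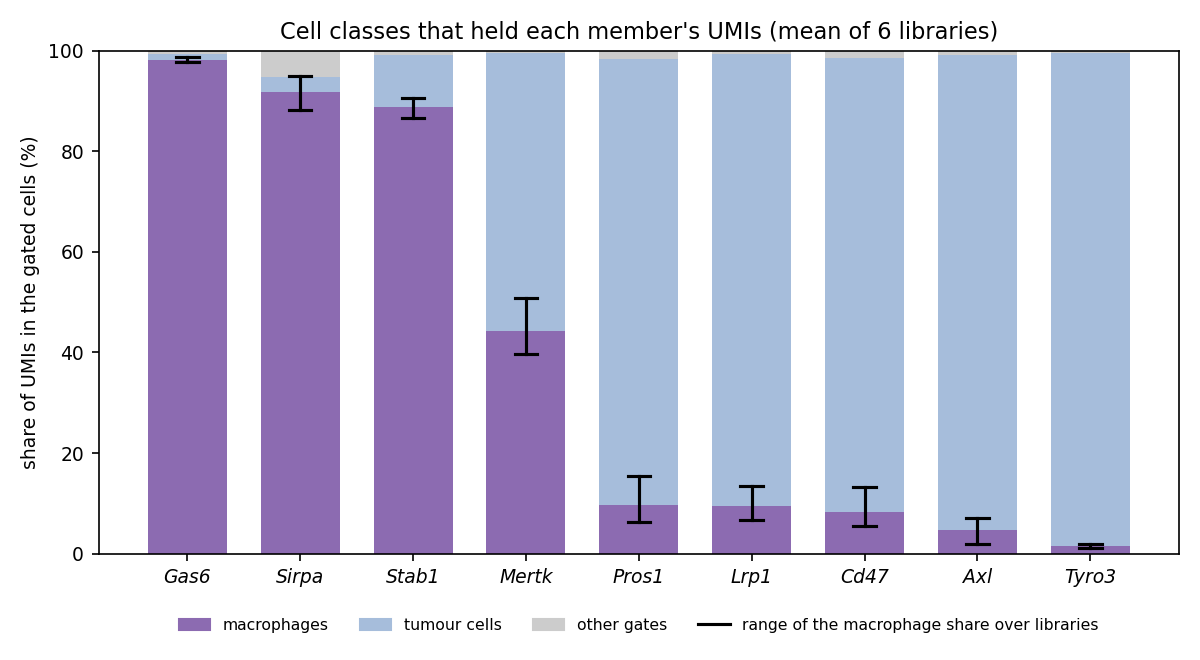
Share of each member's UMIs in the gated cells (y axis, percent) held by macrophages, tumour cells and the other gates, as the mean of 6 libraries; the black bars give the range of the macrophage share over libraries. Gas6, Sirpa and Stab1 UMIs came mostly from macrophages, Axl and Tyro3 UMIs from tumour cells, and Mertk from both, with 39.6 to 50.8% in macrophages. Timd4 is left out for its low counts.

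Stab1 and Lrp1 are large scavenger receptors. Stab1 was at 811 to 1067 CPM in macrophages, 265 to 459 in endothelial cells and 8.56 to 15.3 in tumour cells. Lrp1 was at 956, 950, 747, 757, 747 and 846 in macrophages and 959, 948, 815, 793, 893 and 963 in tumour cells, ranges that overlap. Dendritic cells had less Lrp1, at 146 to 291, below every library of both.

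Timd4, a phosphatidylserine receptor best known from resident macrophages, was nearly absent from the C1q macrophages. Only 2 Timd4 UMIs were counted in their 6 libraries, both in control anti-PD1, and 58 UMIs in 32 of all 43260 cells. By library, 3, 16, 6, 5, 14 and 14 Timd4 UMIs were counted in all cells, and 2, 7, 4, 5, 1 and 9 in cells of a single gate. The rest lay in cells of no gate or of several gates, whose type was not determined. Dendritic cells held 23 of the 58 UMIs, or 60.5 CPM over their pooled counts (95% Poisson interval 38.4 to 90.9, counting error only). By library their level was 20.8, 45.9, 80.6, 82.0, 17.9 and 117, from 1 to 8 UMIs each, so they give no order of the libraries. At least 1 Timd4 UMI was found in 11 of 83 dendritic cells, 13.3% (exact 95% binomial interval 6.81 to 22.5%). The same share was at most 0.05% in macrophages, which were of like depth, and at most 0.03% in the deeper tumour cells. Among dendritic cells, Timd4 was found in 9 of the 56 with a Flt3 UMI and 2 of the 27 without, and in 3 of 22 with and 8 of 61 without Ccr7, a split chosen after the values were seen. These counts are too small for the groups to be told apart.

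Of the don't-eat-me pair, the ligand was widespread and the receptor was nearly absent from tumour cells, while macrophages and dendritic cells held both. Cd47 was found in every gate, at 473, 474, 441, 401, 467 and 441 CPM in macrophages, 679, 650, 497, 418, 609 and 572 in tumour cells and 383 to 935 in dendritic cells. Sirpa was at 639, 608, 653, 537, 718 and 604 in macrophages, 102 to 412 in dendritic cells and 1.48 to 2.63 in tumour cells. In order of the mean over libraries, macrophages led for Mertk, Gas6, Stab1 and Sirpa, and their range overlapped that of the next gate for none of the 4. Tumour cells led for Axl, Tyro3 and Lrp1 and overlapped the next gate for each, which was the 42 pericytes, the 88 T and NK cells and the macrophages in turn. T and NK cells led for Cd47 and pericytes for Pros1, again with overlap.

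**Figure D2:**
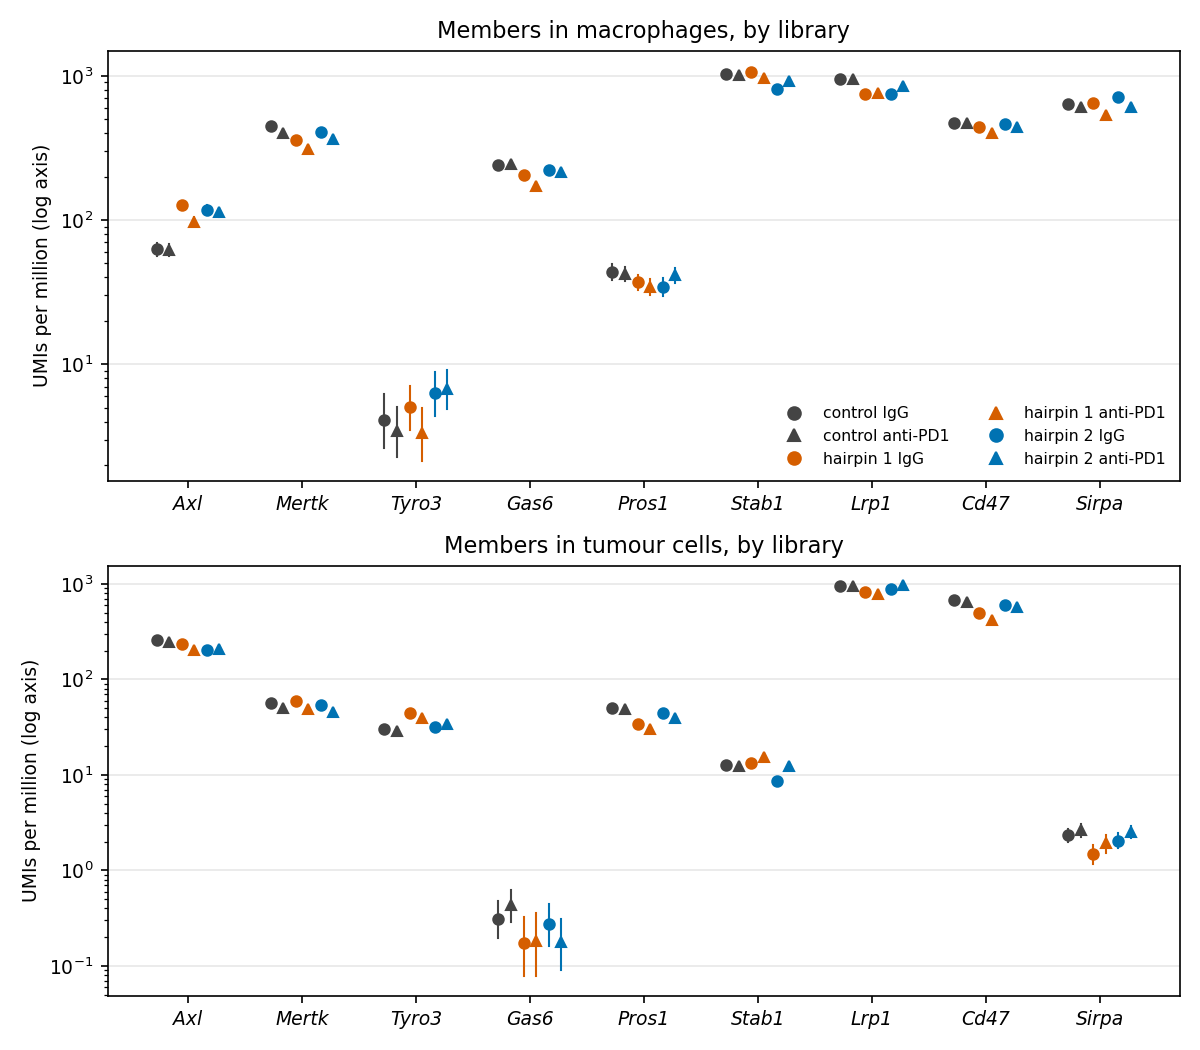
CPM (y axis, log scale) of 9 members in macrophages (top) and tumour cells (bottom), 1 point a library, with bars for the 95% Poisson interval of the counts (counting error only). Axl in macrophages was at 62.1 and 62.8 in the control libraries and at 97.3 to 127 in the 4 hairpin libraries; Gas6 was at 0.17 to 0.43 and Sirpa at 1.48 to 2.63 in tumour cells.

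In a model over these classes with library as a block (edgeR's quasi-likelihood test, Benjamini-Hochberg adjusted over all genes, called under 0.05), 80.1% of the 13272 genes differed between macrophages and tumour cells, 39.8% being higher and 40.4% lower in macrophages. Of the 10 members, 4 were higher and 2 lower in macrophages, 6 of 10 against that background. On the log2 scale, with SE, the differences were 9.76 ± 0.16 for Gas6, 8.26 ± 0.17 for Sirpa, 6.37 ± 0.12 for Stab1, 2.94 ± 0.11 for Mertk, -1.18 ± 0.16 for Axl and -2.78 ± 0.15 for Tyro3. Adjusted p in edgeR was 1.2e-06 for Axl and at most 8.82e-13 for the others. Pros1 (0.01 ± 0.10), Lrp1 (-0.03 ± 0.10), Cd47 (-0.25 ± 0.12) and Timd4 (2.01 ± 1.18) did not pass. Scaling matters for those near 0: with RLE size factors the median of all genes moved by -0.21, Lrp1 (-0.24) and Cd47 (-0.46) were called lower in macrophages, and Pros1 turned to -0.19.

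How far a level could come from RNA of the other class was looked at with markers, a table chosen after the data were seen. The 10 macrophage markers were in tumour cells at 0.13 to 6.96% of their macrophage level (median 0.187%, Cd14 the highest). In tumour cells Gas6 (0.119%) lay below that range, Sirpa (0.344%) and Stab1 (1.29%) within it and Mertk (13.7%) above it. In the other direction, Cdkn2a, Grem1 and Spp1 were in macrophages at 13.8, 17.3 and 24.0% of their tumour level. The tumour gate selects on these genes, which raises their tumour level and so lowers these shares. Expression of these genes, Spp1 among them, by the macrophages themselves would raise the shares and was not tested. Of the other tumour markers, Pax3 was in macrophages at 11.9% and Pmel at 68.8% of the tumour level, and Sox10 at 0. Tyr (194%), Mlana (474%), Dct (664%) and Mitf (690%) were higher in macrophages, all but Mitf at under 2 CPM. Tyro3 averaged 4.84 ± 1.47 CPM in macrophages (SD, n = 6) and 34.6 ± 5.86 in tumour cells, and Axl 96.7 ± 28.2 and 226 ± 24.3. By library, Tyro3 in macrophages was at 0.0848 to 0.200 times its tumour level, which spans the shares of Pax3, Cdkn2a and Grem1. Axl was at 0.244 to 0.579 times. The part of tumour RNA or of mixed cells in these macrophage values was not tested.

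Compared with dendritic cells in the same model, 20.5% of all genes differed (16.1% higher and 4.4% lower in macrophages) and 7 of the 10 members did. Macrophages had more Lrp1 (2.31 ± 0.14, log2 ± SE), Pros1 (2.00 ± 0.55), Sirpa (1.72 ± 0.19), Mertk, Stab1 and Gas6, and less Timd4. Adjusted p was 0.0135 for Pros1 and at most 2.11e-06 for the other 6 (edgeR). No fitted fold is given for Mertk, Stab1, Gas6 and Timd4, which were at or near 0 on a side. Dendritic cells held 3 Mertk UMIs and 1 Stab1 UMI, all in control anti-PD1, with 5 of 6 libraries at 0. Over pooled counts that was 7.90 CPM for Mertk (95% Poisson interval 1.63 to 23.1) and 2.63 for Stab1 (0.0667 to 14.7). Both stayed called without that library. Axl (1.32 ± 0.47, adjusted p = 0.0512), Cd47 (-0.06 ± 0.16) and Tyro3 did not pass. Here the scaling moved the whole comparison: the median of all genes was 0.54 under TMM and lower by -0.32 under RLE, and the share of calls that were higher in macrophages went from 78.6% to 55.9%. Without the hairpin 2 IgG library the count over all genes fell from 2725 to 1785, and Pros1 was no longer called (adjusted p = 0.0614), nor was it in DESeq2 (adjusted p = 0.0571).

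Knockdown against control was then tested within each class over all 6 libraries, with the antibody as a covariate. In macrophages, 0.0554% of 12638 genes were called (0.0396% higher, 0.0158% lower) and 0 of the 9 members tested. Axl was closest: its 2 control libraries, at 62.8 and 62.1 CPM, lay below the 4 hairpin libraries at 97.3 to 127, and its log2 difference was 0.83 ± 0.10 (SE, adjusted p = 0.0555, edgeR). DESeq2 on the same sums called it (adjusted p = 6.4e-06), and so did edgeR with no filter on low counts. With each line's libraries summed, so that 2 lines met 1, the adjusted p was 0.45. The other 8 members had differences between -0.33 (Lrp1) and 0.47 (Tyro3).

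Each hairpin line was also set against the control line, as 2 libraries of a line against 2. The 2 comparisons share the control libraries. A p-value of line against line here measures the spread between the antibody libraries of a line, not that between lines. In macrophages, Axl was 0.81 ± 0.10 higher with hairpin 1 (adjusted p = 0.00139) and 0.84 ± 0.10 higher with hairpin 2 (adjusted p = 0.00298), and the 2 hairpin lines differed by 0.03 ± 0.10. With hairpin 1, 8.98% of genes were called (4.21% higher, 4.77% lower), and of 9 members Axl was higher while Gas6 (-0.40 ± 0.08, adjusted p = 0.0158), Mertk (-0.38 ± 0.07, adjusted p = 0.00814) and Lrp1 (-0.37 ± 0.08, adjusted p = 0.0165) were lower. In CPM, Gas6 was at 240 and 245 in control and 204 and 173 with hairpin 1, and Mertk at 452 and 401 against 357 and 312, with no overlap. With hairpin 2, 3.56% of genes were called (1.36% higher, 2.2% lower) and Axl was the 1 member among them, while Mertk (-0.18), Gas6 (-0.19) and Lrp1 (-0.30) did not pass. The direct test of hairpin 2 against hairpin 1 called 7.65% of genes (3.89% higher, 3.76% lower) and 0 of 9 members in macrophages, so the lines were not shown to differ for any member. Leaving out libraries, Axl and Mertk stayed called in 6 of 6 refits for hairpin 1, Gas6 in 4 and Lrp1 in 3. Gas6 was lost without control anti-PD1 (adjusted p = 0.107) and without hairpin 1 anti-PD1 (0.125), and with doublets kept (0.0549), and Lrp1 without control IgG (0.11), hairpin 1 IgG (0.0723) or hairpin 1 anti-PD1 (0.108).

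Lists of other cells' markers moved with these groups. The lists are not specific to their cells. That of dendritic cells summed to 574 to 1106 CPM in endothelial cells and 476 to 1194 in T and NK cells, against 2561 to 5959 in dendritic cells. Of the 10 neutrophil markers, 8 were lower in macrophages with hairpin 1 and 6 with hairpin 2. They summed to 500 and 507 CPM in the macrophage sums of the control libraries and to 120 to 256 in the hairpin libraries. In the tumour sums they were at 139 to 162 and 54.4 to 84.4. In tumour cells the dendritic markers went the other way, at 173 to 176 in control and 213 to 311 in the hairpin libraries, and so did the pericyte markers, at 65.9 to 68.3 and 73.7 to 89.5. Those of T and NK cells (0.22 to 0.36 and 0.42 to 0.72) and of B and plasma cells (0.51 to 0.74 and 0.86 to 1.29) were also higher there. Endothelial markers (87.6 to 88.1 and 75.4 to 86.0) and the tumour markers (10294 to 10395 and 6711 to 10160) were lower. The ranges of the macrophage and red cell markers overlapped. The B and plasma cell markers in macrophages were at 7.0 to 7.4 in control and 10.5 to 18.1 in the hairpin libraries. The tumour markers in macrophages were at 2181 to 3120 in control and 1295 to 2220 in the hairpin libraries. Most of that sum was Spp1 (1330 CPM on average) and Grem1 (550), on which the tumour gate selects. Whether a list tracked other cells or a class's own expression was not tested. The part of all these markers in the differences was not tested either. With stricter gates for both classes, Axl in macrophages differed by 0.93 with hairpin 1 and 0.88 with hairpin 2, and with doublets kept by 0.57 and 0.60, each still called.

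In tumour cells, knockdown against control called 0 of 15737 genes in edgeR, with 3140 at an unadjusted p under 0.05. DESeq2 called 1435, of which Axl was the 1 member (adjusted p = 0.0136). Each hairpin line was then set against the control line, where edgeR's p-values again measure no spread between lines. Axl was lower with both hairpins: -0.29 ± 0.07 (adjusted p = 0.013) with hairpin 1 and -0.36 ± 0.07 (adjusted p = 0.0165) with hairpin 2. Its 2 control libraries at 258 and 247 lay above all 4 hairpin libraries, at 203 to 237. Pros1 was lower likewise, by -0.73 ± 0.06 (adjusted p = 0.000187) and -0.31 ± 0.06 (adjusted p = 0.0185), with 50.1 and 49.2 in control, 33.8 and 29.9 with hairpin 1 and 44.3 and 39.5 with hairpin 2. These counts stand against a high background, since 43.1% of all genes were called with hairpin 1 (21.5% higher, 21.6% lower) and 16.8% with hairpin 2 (8.55% higher, 8.27% lower). Of 9 members tested, 6 were called with hairpin 1 and 2 with hairpin 2. Those with hairpin 1 include Sirpa, which was at only 1.48 to 2.63 CPM in tumour cells.

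The other calls in tumour cells belonged to hairpin 1. Cd47 was lower by -0.63 ± 0.07 (adjusted p = 0.000424), at 497 and 418 against 679 and 650 CPM in control. Lrp1 (-0.34 ± 0.06) and Sirpa (-0.64 ± 0.17, on 78 and 85 UMIs) were also lower, and Tyro3 was higher (0.41 ± 0.08, adjusted p = 0.00526), at 44.0 and 39.1 against 30.1 and 28.7. Sirpa averaged 2.16 CPM in tumour cells, 0.344% of its macrophage level. The macrophage markers were there at 0.13 to 6.96% of theirs, and the part of macrophage RNA in the Sirpa values was not tested. With hairpin 2, Cd47 was at -0.23 ± 0.07 (adjusted p = 0.0549) and Tyro3 at 0.10 ± 0.08. The hairpin lines themselves differed: hairpin 2 cells had more Pros1 (0.43 ± 0.06), Cd47 (0.40 ± 0.07) and Lrp1 (0.24 ± 0.06) and less Tyro3 (-0.30 ± 0.08) and Stab1 (-0.43 ± 0.14) than hairpin 1 cells, 5 of 9 members where 31.1% of all genes were called (16.2% higher, 15% lower). Stab1 averaged 12.5 CPM in tumour cells, 1.29% of its macrophage level and also within the range of the macrophage markers there. The part of macrophage RNA in that difference was not tested. Slc39a9 itself was at 8.03 and 8.42 with hairpin 1 and at 12.0 and 11.1 with hairpin 2. Sirpa with hairpin 1 was lost without any 1 of the control or hairpin 1 libraries (adjusted p 0.0537 to 0.133), and in DESeq2 (adjusted p = 0.104). Axl with hairpin 1 was lost without control anti-PD1 or hairpin 1 anti-PD1 (0.0778 and 0.0863), and with hairpin 2 without either control library or hairpin 2 IgG (0.0646 to 0.102). Pros1 with hairpin 2 was lost without control anti-PD1 (0.175) or either hairpin 2 library (0.0501 and 0.0598). Between the hairpin lines, Pros1 and Cd47 stayed called in 6 of 6 refits that left out a library (edgeR). Stab1 was lost without hairpin 1 IgG (adjusted p = 0.138), hairpin 1 anti-PD1 (0.108) or hairpin 2 IgG (0.282), with RLE (0.0503), with stricter gates (0.0949) and with cells in several gates assigned (0.0569). Tyro3 was lost without hairpin 1 IgG (0.145) or hairpin 2 IgG (0.169), and Lrp1 without hairpin 1 anti-PD1 (0.155) or hairpin 2 anti-PD1 (0.215).

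**Figure D3:**
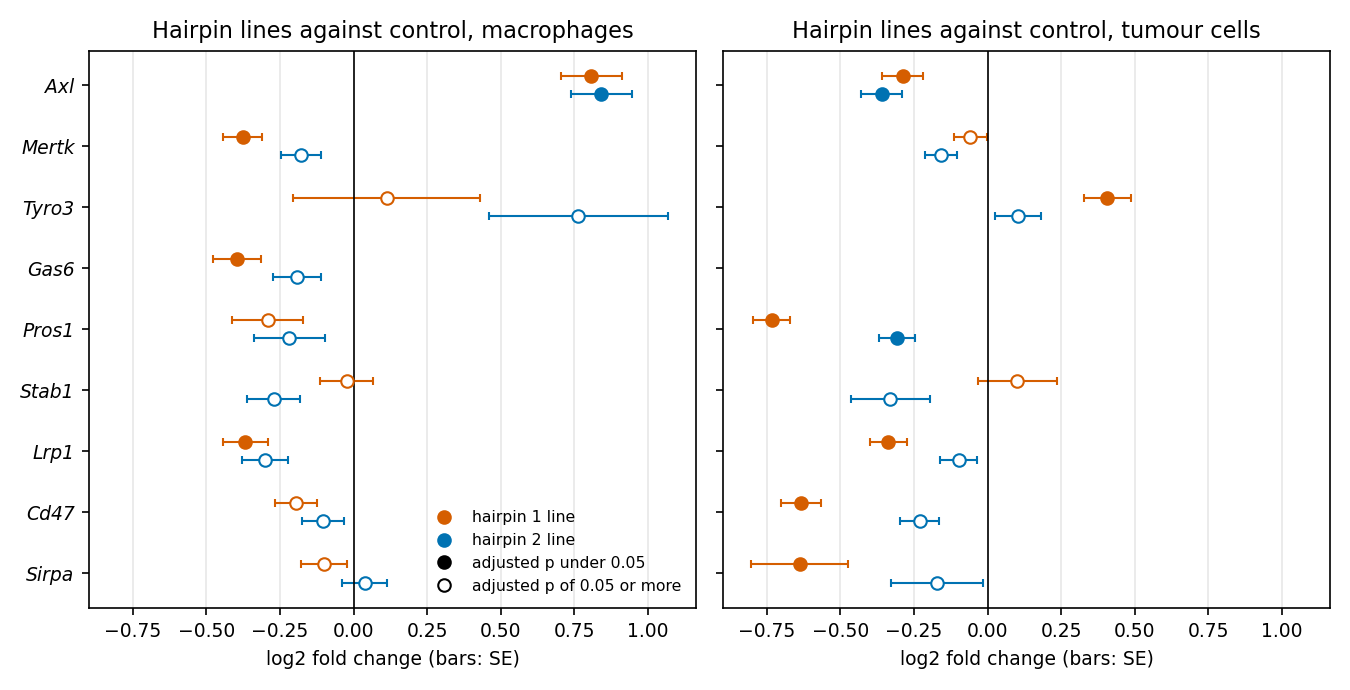
Log2 fold change (x axis; bars are SE) of each member in the hairpin 1 and hairpin 2 lines against the control line, in macrophages (left) and tumour cells (right); filled points had an adjusted p under 0.05. Axl was above 0 in macrophages and below 0 in tumour cells with both hairpins. Timd4 is not shown, nor Gas6 in tumour cells, which was under 1 CPM.

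The opposite signs of Axl were tested as a difference of differences, with class by genotype as the term and library as a block. The knockdown difference in macrophages exceeded that in tumour cells by 1.16 ± 0.10 (log2 ± SE, adjusted p = 0.0123, edgeR), 1 of 9 members where 0.12% of 15899 genes were called (0.0692% higher, 0.0503% lower). This fit takes the libraries of a line as replicates. It was not repeated with each line's libraries summed, so the p-value is no test at the level of lines. Tumour cells had 4.11 and 3.98 times the Axl of macrophages in the control libraries and 1.73 to 2.10 times in the hairpin libraries. That call rests on the control libraries: without control IgG the difference was 1.11 (adjusted p = 0.266) and without control anti-PD1 it was 1.20 (adjusted p = 0.13). The other 8 members tested lay between -0.16 (Mertk) and 0.67 (Gas6), with adjusted p of 0.373 or more.

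Anti-PD1 against IgG called 0 genes in macrophages and 0 in tumour cells (0 by DESeq2 as well), with 375 and 135 genes at an unadjusted p under 0.05, so 0 of 9 members passed in each class. Mertk had the same sign in both classes and all 3 lines: its libraries with anti-PD1 were -0.16 to -0.19 from their IgG partners in macrophages and -0.19 to -0.29 in tumour cells on the log2 scale of CPM. The fitted differences were -0.17 ± 0.09 and -0.23 ± 0.07 and did not pass. Axl (-0.15 ± 0.09) and Sirpa (-0.19 ± 0.09) in macrophages were also at or below 0 in 3 of 3 lines without passing. In dendritic cells, 3 members (Lrp1, Cd47 and Sirpa) had counts enough to be tested among 1317 genes. None of the 3 passed for knockdown or anti-PD1, where edgeR called 0 genes for each, with 100 and 66 at an unadjusted p under 0.05, and DESeq2 called 4 and 0. Cd47 there was at 935 and 725 in control and 383 to 714 with knockdown (-0.73 ± 0.31), on 19 to 79 UMIs a library.

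Within the macrophages, the members were sorted along an axis that they did not define. Each library's macrophages were split at the median ratio of Mrc1 and F13a1 to MHC class II UMIs, which gave 4667 cells on the Mrc1 and F13a1 side (markers of tissue-resident, scavenging macrophages) and 5015 on the MHC class II side (antigen presentation). Of 11952 genes, 23.3% differed between the sides, 11.2% being higher and 12.1% lower on the Mrc1 side. Of 9 members tested, 6 were higher there and 2 lower. Gas6 was at 324, 335, 297, 255, 322 and 318 CPM on the Mrc1 side and at 139, 126, 97.4, 79.8, 135 and 118 on the other (log2 difference 1.42 ± 0.06). Stab1 was at 1194 to 1519 against 466 to 582 (1.39 ± 0.04), and Mertk at 421 to 552 against 187 to 356 (0.70 ± 0.09). Pros1 (0.72 ± 0.12), Lrp1 (0.42 ± 0.05) and Sirpa (0.30 ± 0.05) were higher on the Mrc1 side as well, Sirpa not with stricter gates (0.18, adjusted p = 0.0641, edgeR). Axl went the other way, with 37.7, 38.4, 74.4, 64.5, 74.3 and 69.0 on the Mrc1 side and 93.2, 93.6, 188, 135, 157 and 155 on the MHC side (-1.22 ± 0.06, adjusted p = 2.26e-08). Cd47 was lower by -0.18 ± 0.04, and Tyro3 (-0.41 ± 0.34) did not pass. Axl and Tyro3 were also higher in tumour cells than in macrophages in every library. The part of tumour RNA or of mixed cells in the differences between the sides was not tested.

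**Figure D4:**
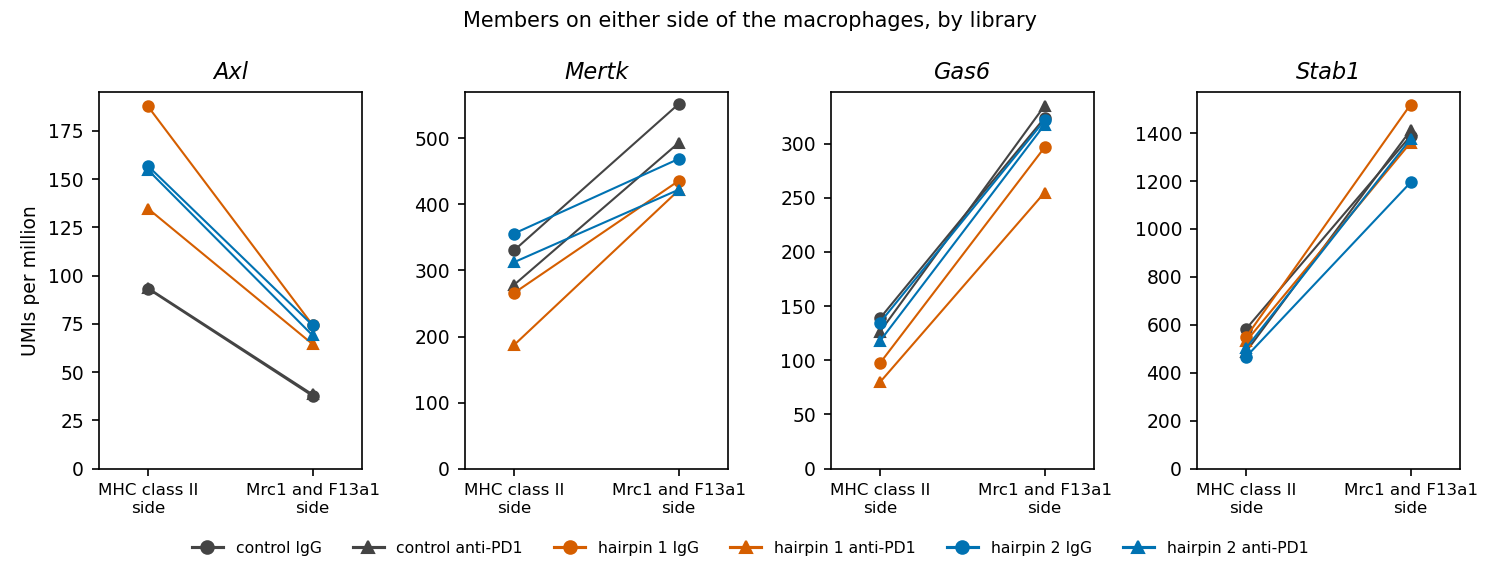
CPM (y axes, from 0, a scale for each gene) of Axl, Mertk, Gas6 and Stab1 on the MHC class II side and on the Mrc1 and F13a1 side of the macrophages; each line joins the 2 sides of a library. Mertk, Gas6 and Stab1 were higher on the Mrc1 side in 6 of 6 libraries and Axl on the MHC side in 6 of 6, and the control libraries had the lowest Axl on either side.

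The higher Axl of the hairpin libraries was present on both sides: 64.5 to 74.4 against 37.7 and 38.4 on the Mrc1 side and 135 to 188 against 93.2 and 93.6 on the MHC side, with no overlap. No test was run on these values, which were looked at after the data were seen. In macrophages thinned to 2000 UMIs a cell (2876 shallower cells left out), Axl was found in 7.47 to 19.2% and Mertk in 38.2 to 46.1%. Mertk was found in 30.7 to 47.8% of the cells with Axl and 38.5 to 46.3% of those without. In dendritic cells thinned alike the shares were 0 to 16.7% for Axl and 0 to 7.14% for Mertk. Without thinning they were 13.7 to 32.7% and 45.1 to 53.7% in macrophages.

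The genes with the pattern most like a member were found over 18 sums (macrophages, tumour cells and cells of the Csf3r gate in 6 libraries) among 7728 genes with at least 20 CPM. These sums share libraries and depth, so the correlations only describe. The gates select on C1qa and C1qc, so for a gene high in macrophages a likeness to these follows from the gates. Gas6 ran closest to Fcrls (Pearson r = 0.98), Zmynd15 and Fmn1. Stab1 ran closest to C1qa (0.99), C1qc and Fcrls, Sirpa to Plcg2 (1.00), Lrrc25 and Inpp5d, and Mertk to Mfsd1 (0.97), Snx24 and Dync1i2. For Tyro3 they were Gatad1 (0.96), Fam189b and Tsen34, and for Cd47 Ier3 (0.94), Thbs1 and Atrn. For Lrp1 they were Peak1 (0.94), Pdpn and Cd2ap, and for Pros1 Pofut1 (0.84), Gatsl2 and Serf2. Timd4 had too few counts in these sums for a likeness.

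The wider pathway was counted in the same fits. Between macrophages and tumour cells these counts stand against 39.8% of all genes higher and 40.4% lower in macrophages. Other phosphatidylserine receptors and bridging proteins (21 genes) had 17 tested between macrophages and tumour cells, 11 higher and 6 lower in macrophages, with a median log2 difference of 0.84 against -0.01 over all genes. Msr1 (9.15 ± 0.16), a scavenger receptor, and Cd300ld (8.93 ± 0.16) led on the macrophage side. Of the engulfment machinery, 11 of 18 were higher and 4 lower, among them Dock2 (8.93 ± 0.16) and Elmo1 (3.96 ± 0.18), which activate Rac. Genes for the digestion of cargo and lipid efflux were higher for 19 of 23 and lower for 4, led by Cybb (9.44 ± 0.17), a subunit of the phagocyte oxidase. Of the inhibitory genes beside Sirpa, 9 of 13 tested were higher, including Ptpn6 (7.60 ± 0.19), the phosphatase that acts below Sirpa, and 4 were lower. Find-me signals and their receptors gave 7 higher and 7 lower of 15, near that background: the receptors Cx3cr1 (8.17 ± 0.18) and P2ry6 (8.28 ± 0.20) were higher in macrophages, and the chemokine Cx3cl1 (-3.10 ± 0.18) was lower. Of 9 genes for ligand carboxylation and receptor shedding, 3 were higher and 4 lower, with the TAM sheddase Adam17 at 1.46 ± 0.10 and Ggcx, the carboxylase that Gas6 and Pros1 need, at -1.24 ± 0.13.

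In macrophages of the hairpin 1 line against control, the cargo and lipid efflux list had 1 gene higher and 5 lower of 23 (median -0.17 against -0.01 over all genes), where 4.21% of all genes were higher and 4.77% lower. Lower were the lipid transporter Abcg1 (-0.58 ± 0.08), its nuclear regulators Nr1h3 (-0.82 ± 0.14) and Rxra (-0.49 ± 0.09), the cystine transporter Slc7a11 (-0.99 ± 0.12) and Uvrag, and Cybb was higher. The fractalkine receptor Cx3cr1 was higher with both hairpins, by 1.12 ± 0.11 and 0.71 ± 0.11. Other phosphatidylserine receptors gave 2 higher and 3 lower of 16 with hairpin 1, with Cd300a at -0.70 ± 0.10, and 0 higher and 3 lower with hairpin 2, with Itgav at -0.56 ± 0.09. With hairpin 2, 1.36% of all genes were higher and 2.2% lower. Slc7a11 was lower with hairpin 2 too (-0.71 ± 0.12), among 1 higher and 2 lower of the 23 cargo genes. Engulfment machinery gave 0 higher and 1 lower of 18 with hairpin 1 (Vav3) and 0 of either with hairpin 2, near the background of called genes.

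In tumour cells of the hairpin 1 line, 14 of 23 cargo and efflux genes were lower and 1 higher (median -0.40 against 0.00), where 21.5% of all genes were higher and 21.6% lower, with the cholesterol transporter Abca1 at -0.92 ± 0.09. Of 12 inhibitory genes tested, 6 were lower and 3 higher against that same background, among the lower ones Cd24a (-1.37 ± 0.37), a don't-eat-me ligand, and the Cd47-modifying enzyme Qpctl (-0.52 ± 0.10). Engulfment genes were lower for 9 and higher for 4 of 18, with Dock8 at 1.93 ± 0.09 and Elmo2 at -0.94 ± 0.06. With hairpin 2 the cargo list had 7 lower and 1 higher, where 8.27% of all genes were lower and 8.55% higher, and Slc7a11 was at -1.76 ± 0.14. Thbs1, a Cd47 ligand and bridging protein, was lower with both hairpins, by -1.07 ± 0.06 and -0.54 ± 0.06. Between the macrophage sides, S1pr1 (1.19 ± 0.16), Cd36 (1.07 ± 0.21) and Ctsd (0.86 ± 0.05) were higher on the Mrc1 side, and Cd274 (-1.08 ± 0.13), which encodes PD-L1, Slamf7 and Cd300lf (-0.81 ± 0.09) on the MHC side. Of 12 inhibitory genes tested, 0 were higher and 5 lower on the Mrc1 side, where 11.2% of all genes were higher and 12.1% lower.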

How the data were processed

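Single-cell RNA was measured in 6 libraries. The authors deposited UMI counts per gene and cell, made with Cell Ranger 7.0.1 on mm10, per the submitters' processing notes. Cells with at least 300 genes and at most 20% mitochondrial UMIs were kept, doublets called by Scrublet in scanpy 1.11.5 (expected rate 0.06) were removed, and classes were set by UMI gates. Levels are CPM, counts per 1000000 UMIs of a class in a library. Sums were tested with edgeR 4.0.16 (quasi-likelihood, TMM, filterByExpr), with p adjusted over all genes tested by Benjamini-Hochberg. Alternatives were DESeq2 1.42.0, RLE size factors, no low count filter, stricter gates, doublets kept, cells in several gates assigned, each library left out and, where they apply, the line as a block or summed. Code was tested on simulated data. Libraries of a line share its cells. In the hairpin lines, their deviations from the knockdown mean of each antibody correlated at 0.47 in macrophages and 0.70 in tumour cells. The hairpin lines mirror each other in this measure, and the control line is not in it. The anti-PD1 fit reported has the genotype as covariate, and the line as a block is its alternative. Named genes were the members and, of each other list, up to 4 called genes a comparison with the largest changes, if they averaged 5 CPM or more. For likeness, the 3 genes with the highest Pearson correlation were named from those averaging 20 CPM or more; those for Axl are not reported here. Any other gene named was picked after its values were seen. Promoters come from RefSeq (GRCm38.p6), and Sirpa is named only. The members and lists were chosen with earlier results of these data known. Intervals cover counting error only.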

Additional observations from a re-analysis of the deposited data

Results flagged for a closer look

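The knockdown difference of Axl differed between cell classes. It was higher in macrophages than in tumour cells by 1.16 ± 0.10 (log2 ± SE, adjusted p = 0.0123, edgeR). Libraries of a line count as replicates in this fit, which was not repeated with each line's libraries summed. Each of the 4 hairpin libraries was above the control library of its antibody in macrophages and below it in tumour cells, but these comparisons share the 2 libraries of 1 control line and are not independent. With DESeq2 the difference was 1.15, with stricter gates 1.24 (adjusted p = 0.0145) and with doublets kept 0.90 (adjusted p = 0.03). It did not pass without the control IgG library (1.11, adjusted p = 0.266) or the control anti-PD1 library (1.20, adjusted p = 0.13), each of which leaves the control line with 1 library, whose spread is then taken from the other lines. The control line is 1 line, so line and knockdown cannot be told apart here.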

How the results depend on the processing

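Over all alternatives, 1525 of the members' log2 differences kept their direction and side of the threshold, 34 lost the call, 30 gained it and 61 changed sign. The differences that changed sign were not called in the fit reported. With doublets kept these were Sirpa for knockdown in macrophages (0.022), Tyro3 (-0.032) and Stab1 (0.044) for hairpin 1 in macrophages, and Tyro3 (-0.099) and Stab1 (0.0012) for the difference between classes. With stricter gates they were Gas6 for anti-PD1 in tumour cells (0.015), Lrp1 (0.035) and Sirpa (0.051) for anti-PD1 in dendritic cells, Axl between the hairpins in macrophages (-0.050) and Timd4 between macrophages and tumour cells (-0.94). With cells in several gates assigned, Sirpa for knockdown in dendritic cells was -0.0048 and Axl between the hairpins in macrophages -0.025. Pros1 between macrophages and tumour cells was -0.19 with DESeq2 and with RLE, -0.17 with no filter, -0.00055 with doublets kept and -0.020 with such cells assigned. With the line as a replicate block, Gas6 for anti-PD1 in tumour cells was 0.025, and the block changed no member's call and moved the count over all genes in tumour cells from 0 to 1. The cause was not tested.

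Leaving out each library in turn, the log2 differences that changed sign ranged as follows. For knockdown they were Sirpa -0.12 to 0.069 in macrophages, Stab1 -0.28 to 0.078 in tumour cells and Sirpa -0.095 to 0.72 in dendritic cells. For anti-PD1 in macrophages they were Tyro3 -0.55 to 0.062, Gas6 -0.15 to 0.023, Pros1 -0.040 to 0.10 and Stab1 -0.10 to 0.14. For anti-PD1 in tumour cells they were Tyro3 -0.17 to 0.085, Gas6 -0.33 to 0.28, Pros1 -0.24 to 0.020, Lrp1 -0.081 to 0.10 and Cd47 -0.27 to 0.014, and in dendritic cells Sirpa -0.65 to 0.17. Between the hairpins they were Axl -0.14 to 0.20, Pros1 -0.11 to 0.24 and Lrp1 -0.031 to 0.16 in macrophages, and Axl -0.17 to 0.038 and Gas6 -0.13 to 0.83 in tumour cells. Against control they were, for hairpin 1, Tyro3 -0.17 to 0.38 and Stab1 -0.13 to 0.092 in macrophages and Stab1 -0.086 to 0.30 in tumour cells, and, for hairpin 2, Sirpa -0.049 to 0.14 in macrophages and Tyro3 -0.020 to 0.22 in tumour cells. Pros1 ranged from -0.057 to 0.068 and Timd4 from -1.55 to 2.53 between macrophages and tumour cells, Cd47 from -0.35 to 0.025 against dendritic cells and Stab1 from -0.12 to 0.053 for the difference between classes.

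The number of members called for knockdown in macrophages went from 0 to 1 with DESeq2 and 2 with no filter, and in tumour cells from 0 to 1 with DESeq2. In macrophages with no filter it went from 0 to 1 between the hairpins and from 1 to 3 for hairpin 2. Without each library it ranged from 0 to 1 between the hairpins, 2 to 4 for hairpin 1 and 1 to 3 for hairpin 2 in macrophages, 3 to 5 between the hairpins and 0 to 3 for hairpin 2 in tumour cells, and 0 to 1 for the difference between classes. Counts over all genes moved more: for knockdown in macrophages from 7 to 135 with DESeq2, 790 with no filter, 3 with stricter gates, 11 with cells assigned, 0 with lines summed and 0 to 12 without a library. For knockdown in tumour cells they went from 0 to 1435 with DESeq2 and 74 with no filter, and in dendritic cells from 0 to 4, 55, 31 with lines summed and up to 74 without a library. For anti-PD1 with no filter they were 60 in macrophages and 12 in dendritic cells (0 to 3 without a library). With DESeq2 and with no filter, they were 434 and 1608 between the hairpins, 514 and 1773 for hairpin 1 and 244 and 1072 for hairpin 2 in macrophages, and 160 and 186 for the difference between classes (0 to 23 without a library). Without a library they ranged from 531 to 1344, 584 to 1683 and 209 to 669 for those macrophage comparisons, and from 2896 to 4552, 4023 to 7073 and 810 to 3441 in tumour cells. Between the macrophage sides they went from 2783 to 1720 with DESeq2, 1730 with stricter gates and 4196 with cells assigned. The 83 dendritic cells limit every level there.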
